A study of Mus musculus with 7 samples.

Results

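The transcriptome of cultured wild type mouse lung endothelial cells (MLEC) is described here from the 4 WT libraries of a series of 7, named a, c, e and f. The other 3 libraries come from mice without adrenomedullin (AM) in their endothelium (AM EC-KO, floxed *Adm* removed by a Cre driven by the *Cdh5* promoter) and were not used. The WT mice were C57BL/6 littermates of those animals, and their age is not given in the sources used here. Members were chosen by genotype label alone, and all 38300 genes with library values were kept of 38472 in the table. Lungs of 3 mice were pooled for each cell preparation, digested with collagenase, sorted with beads against PECAM-1, grown on gelatin in medium with serum, heparin and endothelial growth supplement, and re-sorted on ICAM-2 beads. The sources do not say which libraries share a preparation, so the spread between libraries may be technical in part. No test was run, because a single group offers no comparison.

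Endothelial cells (EC) line blood and lymph vessels. They hold the vessel closed through VE-cadherin junctions, keep the blood fluid, set vessel tone through nitric oxide, endothelin and AM, and let leukocytes through by displaying adhesion molecules. In the lung they form the capillary bed for gas exchange, and in culture they leave that bed, spread on a matrix they secrete and resume division.

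Levels are given in FPKM, fragments per kilobase of transcript scaled to the number of mapped reads, and sets of 4 values follow the order a, c, e, f. The summed FPKM per library ranged from 516082 to 563134. The depth was estimated at 7.6 to 8.1 M mapped reads from the steps between low values in genes that have 1 transcript only. At that depth a transcript of 1.5 kb at 10 FPKM corresponds to about 117 reads. An exact 0 in this table can be a failed estimate, since 451 genes were listed at 0 in 1 to 3 libraries and at 10 FPKM or more in all the others. A 0 in all 4 libraries, as for the ribosomal protein gene *Rpl19*, can be one too and is not read as absence. Library e stood apart from the rest, so values are given by library and the shares and counts that turn on e also without it. The Y-linked genes *Eif2s3y* (22.7 to 32.3 FPKM) and *Ddx3y* (9.59 to 13.6 FPKM) were read in all 4 libraries and *Xist* was listed at 0 in all 4.

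The 6 markers of endothelium were high in every library. *Emcn*, which encodes the sialomucin endomucin (chr3:137341067-137432185 in GRCm38, plus strand), was read at 1337, 1237, 571 and 1248 FPKM. *Egfl7*, a secreted factor of EC (chr2:26580014-26593120, plus strand), was read at 819, 1001, 1079 and 902 FPKM. The TGF-beta co-receptor endoglin, *Eng* (chr2:32646595-32682669, plus strand), was at 462, 432, 433 and 408 FPKM, and the adhesion molecule of the first sort, *Pecam1* (chr11:106654217-106750628, minus strand), was at 431, 454, 364 and 420.4 FPKM. VE-cadherin, *Cdh5* (chr8:104101625-104144511, plus strand), was at 287, 393, 394 and 311 FPKM, and *Icam2*, the target of the second sort (chr11:106377656-106388075, minus strand), was at 122, 119.9, 111 and 121 FPKM. *Icam2* was the steadiest of the 6, with a coefficient of variation (CV, the SD over the mean of the 4 libraries) of 0.0426, followed by *Eng* at 0.0504 and *Pecam1* at 0.0917. *Emcn* was the least steady (CV 0.323), its level in library e lying below those of the other 3. *Pecam1* and *Icam2* were the targets of the sorts and are thus no independent sign of the cell type. The label of endothelium was borne out by *Emcn*, *Egfl7*, *Eng* and *Cdh5*.

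Beyond these, all 26 pan-endothelial markers listed had a mean of at least 1 FPKM and 25 had a mean of at least 10. The list held 0.964% ± 0.0466 (SD, n = 4) of the summed FPKM. *Plvap*, the diaphragm protein of fenestrae and caveolae, was at 579, 757, 271 and 393 FPKM, and *Cd34* at 189, 193, 158 and 238 FPKM. The receptor *Tie1* was at 115, 151, 178 and 132 FPKM, and the junction protein *Esam* at 109, 121, 134 and 169.98 FPKM. *Ecscr*, an endothelial sialomucin, was at 254, 293, 280.2 and 0 FPKM, the last value being one of the zeros described above. Von Willebrand factor, *Vwf*, was listed at 0, 0, 89.5 and 9.81 FPKM. Of 23 pan-endothelial genes that averaged 10 FPKM or more and had no 0 in any library, the median CV was 0.2599, against 0.142 over all 6758 genes that met the same filter. Library e gave the highest value for 12 of the 23 and library a the lowest for 11.

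Among the transcription factors of endothelium, *Sox18* was read at 102, 149.6, 174 and 53.1 FPKM and *Erg*, an ETS factor that keeps endothelial identity, at 70.6, 69.3, 87.1 and 79.98 FPKM. *Elk3* at 64.5, 68.2, 77.8 and 64.6 FPKM was the steadiest of the list (CV 0.0912). *Bcl6b* was at 21.9, 40.7, 59.1 and 39.3 FPKM and *Lmo2* at 20.3, 28.8, 77.5 and 23.98 FPKM. In all, 18 of 28 factors in the table had a mean of at least 10 FPKM, and library e was highest for 13 of the 18 that met the filter. The flow-induced factors *Klf2* (10.1 to 20.5 FPKM) and *Klf4* (13.2 to 31.95 FPKM) were read in static culture as well.

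Genes of the lymphatic lineage were uneven in level. A mean of 1 FPKM or more was reached by 10 of 11 listed, 10 FPKM by 5 and 100 FPKM by 2. *Lyve1*, the hyaluronan receptor of lymphatic endothelium, was read at 36.8, 104, 157 and 141 FPKM, and *Prox1*, the factor that sets lymphatic identity, at 3.87, 5.79, 13.1 and 4.62 FPKM. *Flt4*, the receptor for VEGF-C, was at 64.9, 91.4, 54.4 and 49.8 FPKM and podoplanin, *Pdpn*, at 99.7, 72.9, 24.5 and 32.4 FPKM. *Lyve1* and *Prox1* were lowest in a and highest in e, while *Pdpn* was highest in a and lowest in e. The lymphatic chemokine *Ccl21a* was at most 0.341 FPKM. In bulk RNA a few lymphatic cells and a low level in all cells cannot be told apart.

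Markers of specialised vessels were uneven, with 19 of 24 capillary, arterial and venous genes at a mean of 1 FPKM or more and 10 at 10 or more. Carbonic anhydrase 4, *Car4*, which marks the large capillary cells of the alveolus, was listed at 0 in all 4 libraries, and *Gpihbp1*, the capillary anchor of lipoprotein lipase, was at 0.6596, 2.27, 10.9 and 2.33 FPKM. Of arterial genes, the Notch ligand *Dll4* did not exceed 1.2001 FPKM and the connexin *Gja5* did not exceed 0.745 FPKM, whereas *Efnb2* was at 26.1, 24.1, 18.6 and 32.1 FPKM and *Cxcl12* at 144, 143, 77.7 and 213 FPKM. Of venous genes, *Nr2f2* was at 12.3, 18.1, 31.6 and 20.9 FPKM and P-selectin, *Selp*, at 241, 227, 381 and 213 FPKM. *Apln*, a ligand made by endothelial tip cells, was at 75.01, 160.4, 74.7 and 94.8 FPKM, while its receptor *Aplnr* was read at 27.1 FPKM in library e and at most 0.225 FPKM in the others.

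Lymphocyte markers and most lung epithelial markers were at or near 0, while other lists were read in larger part. A mean of 1 FPKM or more was reached by 10 of 15 fibroblast, 9 of 13 smooth muscle and pericyte, 9 of 20 myeloid and 4 of 8 mesothelial markers. Of 11 lymphocyte markers none reached a mean of 1 FPKM, 9 of them (among them *Cd3e* and *Nkg7*) being listed at 0 throughout, and the leukocyte antigen *Ptprc* was listed at 0 in all 4 libraries. The epithelial genes *Epcam* and *Cdh1* did not exceed 0.0667 and 0.165 FPKM and *Nkx2-1* was listed at 0, but 3 of 18 lung epithelial markers had a mean of 1 FPKM or more. These were *Sftpc* and the keratins *Krt19* (58.96, 27.4, 1.75 and 15.8 FPKM) and *Krt18* (19.4, 18.1, 11.7 and 13.7 FPKM), and the list summed to 78.7, 46.5, 27.5 and 30.2 FPKM. The mesothelial list, which shares *Krt19*, summed to 60.97, 32.8, 3.999 and 32.4 FPKM, with mesothelin, *Msln*, at 0.406 to 7.38 FPKM and *Wt1* listed at 0. Both lists were highest in a and lowest in e. Surfactant protein C, *Sftpc*, of alveolar type II cells, was at 10.3 FPKM in library e and listed at 0 in the others, a pattern of the zeros described above. Myeloid genes were more uneven: *Lyz2* was at 38.8, 71.5, 40.6 and 25.5 FPKM and *S100a8*, a neutrophil calprotectin subunit, at 2.05, 29.5, 129.8 and 0 FPKM, while *Csf1r* did not exceed 1.39 FPKM. The summed myeloid list came to 0.009599 to 0.0486% of a library.

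Genes shared by fibroblasts and mural cells were read at higher levels. *Thy1* was at 257, 228, 159.98 and 210.3 FPKM, smooth muscle actin, *Acta2*, at 68.2, 107, 238 and 201 FPKM and transgelin, *Tagln*, at 247, 285, 190.1 and 401 FPKM. The factor that commits cells to smooth muscle, *Myocd*, was listed at 0 in all 4 libraries and the smooth muscle myosin *Myh11* was at 0.957 to 3.14 FPKM. Decorin, *Dcn*, a proteoglycan of fibroblasts, was read at 2.83, 8.47, 227 and 6.04 FPKM, and the collagen gene *Col1a2* at 0.105, 0, 83.1 and 0 FPKM. Both were thus high in library e and low or listed at 0 in the rest, although lumican, *Lum*, was at 0.483 FPKM in e and dermatopontin, *Dpt*, at 0.0901 FPKM. The fibroblast list summed to 0.0516, 0.0478, 0.116 and 0.0553% of the 4 libraries. The part of other cells in these levels was not tested.

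**Figure D1:**
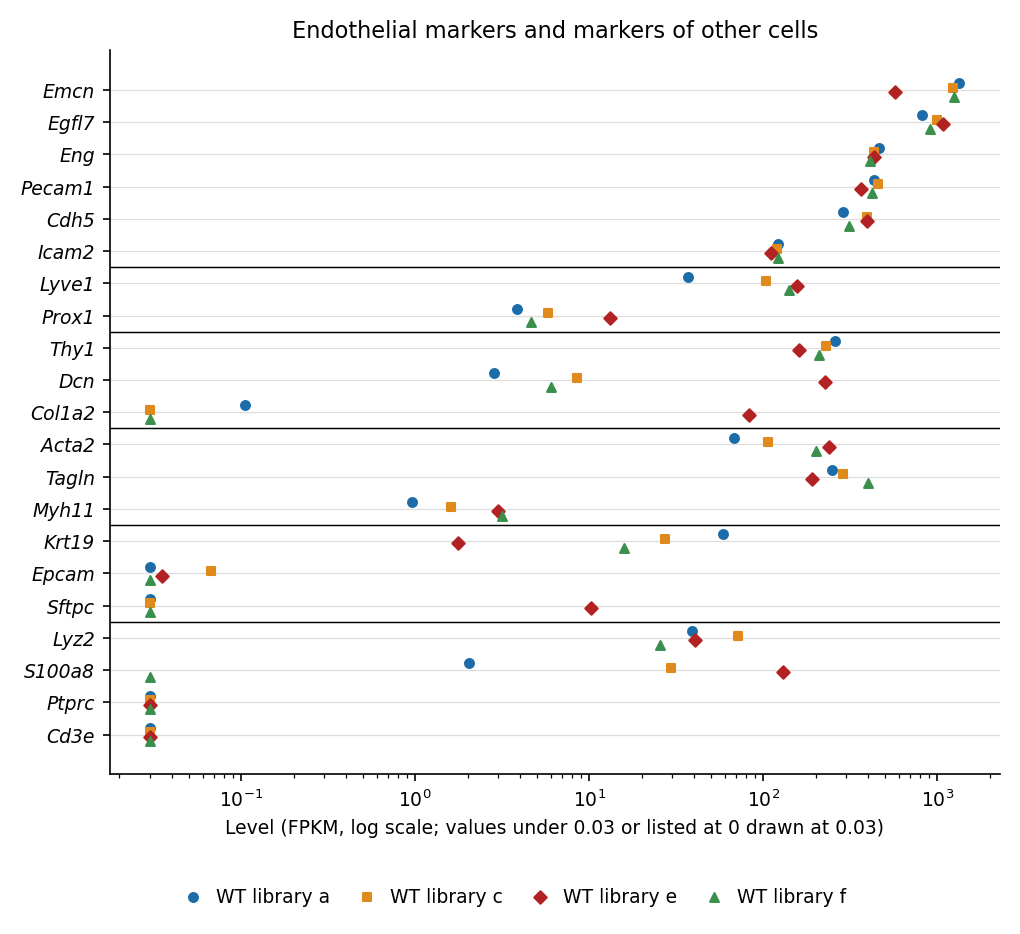
Levels of the 6 endothelial markers, 2 lymphatic genes and markers of fibroblasts, mural cells, epithelium and leukocytes in FPKM on a log axis, 1 point per WT library. The 6 endothelial markers lie between 111 and 1337 FPKM in all 4 libraries, while *Ptprc* and *Cd3e* were listed at 0 and *Dcn* and *Col1a2* were high in library e.

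The cells used a wide range of genes. Of the 38300 genes, 13490 were above 0 in all 4 libraries, 10629 reached 1 FPKM in every library, 5878 reached 10 FPKM, 775 reached 100 FPKM and 35 reached 1000 FPKM. Rescaled to TPM, so that each library has the same sum, 7694 reached 10, 1519 reached 100 and 112 reached 1000. Within 1 library, 12039 to 12335 genes were at 1 FPKM or more. The 10 genes of highest mean held 6.01 to 7.66% of the summed FPKM, the first 100 held 23.4 to 25.7% and the first 1000 held 58.5 to 62.7%. Transcripts of the mitochondrial genome were the most abundant, led by *mt-Co2* at 7934, 8117, 6042 and 6145 FPKM, and made up 6.16% ± 0.616 (SD, n = 4). Pseudogenes, mostly processed copies of ribosomal protein and other short housekeeping genes, took 25.8% ± 0.609 (SD, n = 4). These copies share reads with their parent genes, so both levels are uncertain: *Rpl19* was listed at 0 in all 4 libraries and the copy *Tpt1-ps3* (1811, 2153, 2657 and 1926 FPKM) was above its parent *Tpt1* (468, 518, 689 and 504 FPKM). Predicted genes and identifiers without a GENCODE entry held 4.61%, and the remaining named genes 63.3%.

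**Figure D2:**
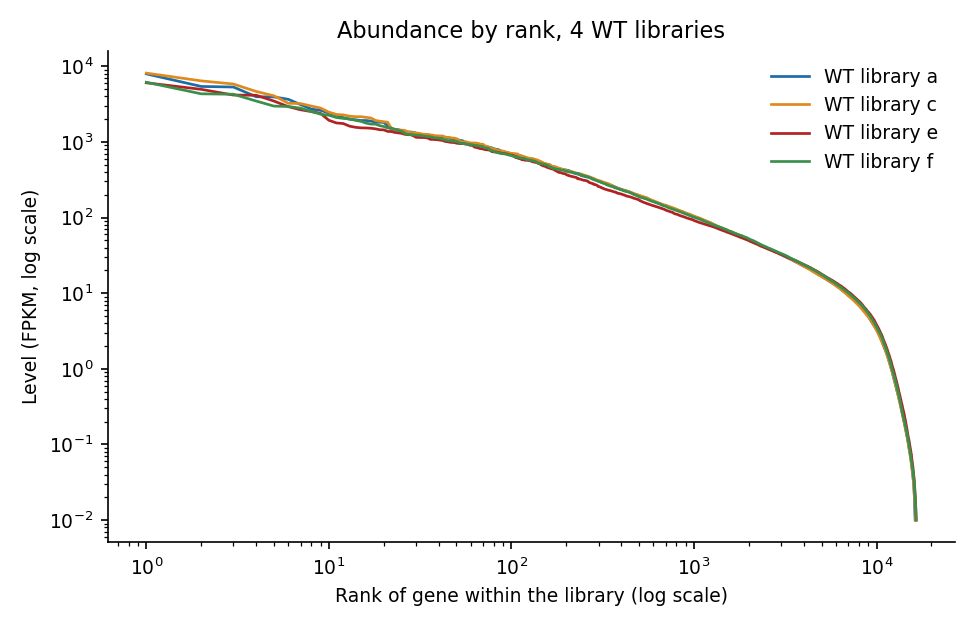
Level of each gene in FPKM against its rank within the library, both on log axes, 1 line per WT library. The 4 curves run close together, from 6042 to 8117 FPKM for *mt-Co2*, with 904 to 1052 genes at 100 FPKM or more.

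Among named genes outside these groups, the 25 of highest mean were made up of small calcium-binding and cytoskeletal proteins, iron storage, translation and a few endothelial products. *S100a6* led at 3933, 2978, 947 and 2973 FPKM and *S100a4*, whose mean lay below that of the ferritin gene *Fth1*, was at 2717, 2802, 602 and 2044 FPKM. These S100 genes encode calcium-binding proteins linked to cell motility. *S100a6* and *S100a4* were lowest in library e, as was *S100a11* (1103, 966, 455 and 915 FPKM). The ferritin chains *Fth1* and *Ftl1*, which store iron, were at 2275, 3240.1, 1137 and 1596 FPKM and 1456, 1441, 549.8 and 1259.8 FPKM. *Ctla2a*, an inhibitor of cysteine proteases, was at 1884, 2110.5, 1613 and 2528 FPKM. The elongation factor *Eef1a1* was at 1819, 1821, 2382 and 2100.1 FPKM and *Eef1b2* at 733, 771, 813 and 779.7 FPKM. Of the cytoskeleton, thymosin beta 4, *Tmsb4x*, which binds actin monomers, was at 1917, 2275, 1930.2 and 1718 FPKM, vimentin, *Vim*, at 1355, 1433, 1079 and 1527 FPKM and beta actin, *Actb*, at 841, 807, 729 and 755 FPKM. The galectin *Lgals1* was at 1461, 1283, 697 and 1409.8 FPKM and annexin A2, *Anxa2*, at 1404, 1306, 616 and 1228 FPKM. Besides *Egfl7*, secreted products among the 25 included the matrix glycoprotein *Sparc* (1055, 1005, 786 and 1236 FPKM) and fibronectin, *Fn1* (744, 969, 789.8 and 711 FPKM). The fatty acid carrier of capillary EC, *Fabp4*, was at 1197, 1202, 768 and 665 FPKM. Ribosomal protein genes supplied 6 of the 25, among them *Rpl41* (1961, 1923, 1559 and 1523 FPKM) and *Rps21* (1350.1, 1334, 1317 and 1212 FPKM).

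Genes of haemostasis held 0.872% ± 0.142 (SD, n = 4) of the summed FPKM, and 17 of 23 had a mean of at least 10 FPKM. Besides *Anxa2*, the anti-angiogenic glycoprotein *Thbs1* was at 554, 605, 655 and 433 FPKM and the receptor of protein C, *Procr*, at 537, 579.8, 214 and 535 FPKM. *S100a10*, the annexin A2 partner that binds plasminogen, was at 671, 585, 252 and 684 FPKM. Thrombomodulin, *Thbd*, was read at 95.2, 108, 60.8 and 126 FPKM, and the initiator of clotting, tissue factor (*F3*), at 46.1, 36.6, 41.5 and 38.4 FPKM. Library e was lowest for 10 of 16 filtered members. *Tfpi2* differed most, at 127, 147, 28.4 and 22.8 FPKM, being high in a and c.

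Of the genes that set vessel tone, endothelin 1, *Edn1*, was at 255, 237, 244 and 132 FPKM and its converting enzyme *Ece1* at 105, 153, 165 and 188 FPKM. Cyclooxygenase 2, *Ptgs2*, was at 244, 251, 125 and 105 FPKM, above cyclooxygenase 1, *Ptgs1*, at 11.3, 13.6, 40.3 and 16.01 FPKM, in every library. Endothelial nitric oxide synthase, *Nos3*, was read at 33.6, 31.7, 35.4 and 48.1 FPKM, while *Nos1* was listed at 0 and *Nos2* did not exceed 0.215 FPKM. The peptide studied in the series, AM (*Adm*), was read at 48.2, 70.1, 76.1 and 43.8 FPKM. Its receptor is formed by *Calcrl* (10.5, 12.9, 24.7 and 48.8 FPKM) with *Ramp2* (123, 104, 158 and 126 FPKM) or *Ramp3* (9.19, 15.5, 16.2 and 7.15 FPKM), so that ligand and receptor were both transcribed in all 4 libraries and *Ramp2* exceeded *Ramp3* in each. *Ace*, an enzyme of lung capillaries, was at 2.696, 4.03, 6.26 and 5.08 FPKM.

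Growth factor receptors of EC were in the middle of the range. *Kdr*, the main VEGF receptor, was at 66.1, 80.7, 73.1 and 47.03 FPKM, *Flt1* at 15.6, 16.05, 41.3 and 17.4 FPKM and *Tek* at 16.8, 16.1, 44.5 and 17.1 FPKM. *Flt1* and *Tek* were highest in library e. The antagonist of Tie2, *Angpt2*, was at 233, 346, 256 and 149.5 FPKM, whereas its agonist *Angpt1*, a product of mural cells, did not exceed 0.128 FPKM. *Esm1*, a tip cell product, was at 193, 209, 47.6 and 74.8 FPKM, high in a and c. *Vegfa* was read at 6.63, 15.4, 83.8 and 7.16 FPKM and was high in library e. Of TGF-beta and BMP signalling, the receptor *Acvrl1* was at 70.9, 70.01, 106 and 101 FPKM and the targets *Id1* and *Id3* were at 193, 213, 218 and 175 FPKM and 183, 189.8, 242 and 232 FPKM.

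Most junction and leukocyte adhesion genes were read, with 22 of 27 and 18 of 21 at a mean of 1 FPKM or more and 2 and 1 listed at 0 throughout. In the junction list 19 of 27 genes had a mean of at least 10 FPKM, including the catenin *Ctnna1* (176, 199.6, 183 and 190.5 FPKM), plakoglobin, *Jup* (106, 129, 79.1 and 55.7 FPKM), and claudin 5, *Cldn5* (12.4, 50.8, 79.98 and 48.1 FPKM), which was lowest in library a. Beta catenin, *Ctnnb1*, was read at 380.01 FPKM in library a and listed at 0 in the others, a pattern of the zeros described above. Among leukocyte adhesion molecules *Icam1* was at 159, 158, 220.5 and 174 FPKM, *Vcam1* at 16.4, 28.6, 65.7 and 89.4 FPKM and E-selectin, *Sele*, at 9.32, 8.28, 60.1 and 19.9 FPKM. *Vcam1* was highest in f and *Sele* in e, while *Icam1* kept within 158 to 220.5 FPKM. *Bsg* (354, 403, 339 and 347 FPKM) was the most abundant of the list.

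The list of chemokines and cytokines held 0.549% ± 0.0482 (SD, n = 4). Genes with the UniProt keyword for cytokines held 0.337, 0.390, 0.656 and 0.320%, highest in e. *Ccl2*, which attracts monocytes, was at 472, 625, 829 and 435 FPKM and *Csf1*, their growth factor, at 298, 265, 180.01 and 221 FPKM. The matricellular genes *Ctgf* and *Cyr61*, targets of YAP in spread cells, were at 807, 715, 479.7 and 638 FPKM and 491, 434, 312 and 398 FPKM. *Il6*, *Il11* and *Cxcl1* were low outside library e and are described with the variable genes.

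Genes of the basement membrane and of other matrix ranged from steady to uneven. The main collagen IV chains, the network of the basement membrane, were at 376, 339, 301 and 358 FPKM for *Col4a1* (CV 0.0941) and 245, 224, 197 and 245 FPKM for *Col4a2* (CV 0.102). The chain *Col4a5* was uneven, at 32.3, 19.7, 3.36 and 32.6 FPKM (CV 0.627). Of laminin chains, *Lamb1* was at 71.6, 75.1, 85.1 and 75.3 FPKM, *Lamc1* at 43.7, 45.4, 47.1 and 52.1 FPKM, while *Lamb2* was lowest in e (CV 0.248). The CV was 0.143 for *Fn1* and 0.181 for *Sparc*, whose levels are given above. *Col1a1* was at 10.2, 14.5, 63.4 and 14.7 FPKM, *Col3a1* at 3.02, 2.86, 18.4 and 31.4 FPKM and *Bgn*, biglycan, at 118, 147, 405 and 544 FPKM. Collagen genes had a median CV of 0.584 over 11 filtered members and other matrix genes 0.348 over 30. The share of matrix genes ran from 0.738 to 1.204% with the highest value in e, and was 0.825% ± 0.106 (SD, n = 3) without e. Library f was highest for 14 of 30 filtered members and e for 9, while e was lowest for 9. The list summed to 4090.3, 4466, 6215 and 5135 FPKM, and in e *Mgp* and *Spp1* alone were at 1145 and 958 FPKM. Genes with the UniProt keyword for extracellular matrix held 1.59, 1.54, 1.45 and 1.81%, lowest in e and highest in f.

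Caveola and transcytosis genes held 0.529% ± 0.104 (SD, n = 4). *Cav1*, the coat protein of caveolae, was at 504, 404, 140.1 and 489.8 FPKM, and the water channel *Aqp1* at 124, 164, 49.5 and 223 FPKM. *Cav1*, *Plvap* and *Aqp1* were all lowest in library e, which was lowest for 11 of 17 members. Integrin *Itgb1* was at 344, 340.003, 322 and 415 FPKM and integrin *Itga5*, the fibronectin receptor chain, at 66.4, 100.2, 177 and 79.3 FPKM.

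The largest classes were those every cell uses. Ribosomal protein genes held 4.28% ± 0.112 (SD, n = 4) of the summed FPKM, the actin cytoskeleton and small cytoskeletal proteins 3.79% ± 0.597 (SD, n = 4), and nuclear genes of the respiratory chain 1.82% ± 0.195 (SD, n = 4). The antioxidant list, which counts the abundant ferritin genes *Fth1* and *Ftl1*, held 1.41% ± 0.306 (SD, n = 4). Translation factors held 1.31% ± 0.138 (SD, n = 4), chaperones 1.11% ± 0.0188 (SD, n = 4) and the proteasome with ubiquitin 1.06% ± 0.03096 (SD, n = 4). Chaperone, proteasome and ribosomal shares agreed closely between libraries. Library e was the lowest of the 4 for the cytoskeletal list (4.23, 3.95, 2.91 and 4.07%), the antioxidant list (1.56, 1.71, 1.01 and 1.37%) and the respiratory chain (1.92, 1.93, 1.52 and 1.88%). It was lowest for 38 of 48 filtered cytoskeletal and 25 of 34 antioxidant members. The UniProt keyword for cytoskeleton gave no such drop, at 5.22, 5.19, 5.19 and 5.35%. That for actin binding gave 2.25, 2.32, 2.19 and 2.23%. Of 67 respiratory chain genes 60 were lowest in e, among them *Cox6b1* (539, 543, 342 and 496 FPKM). Short transcripts in general were lower in e, with a median log2 ratio of e to the mean of the others of -0.13 for genes under 1 kb, and the part of transcript length or RNA quality in these shares was not tested. Without e the cytoskeletal list held 4.08% ± 0.141 (SD, n = 3) and the antioxidant list 1.55% ± 0.172 (SD, n = 3). Haem oxygenase 1, *Hmox1*, of the antioxidant list, was at 858, 869.9, 316 and 433 FPKM and was high in a and c. Glycolysis was led by *Aldoa* (678, 700.5, 566 and 567 FPKM), *Pkm* (572, 592, 421 and 443 FPKM) and *Ldha* (329.98, 359.7, 383 and 295 FPKM).

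**Figure D3:**
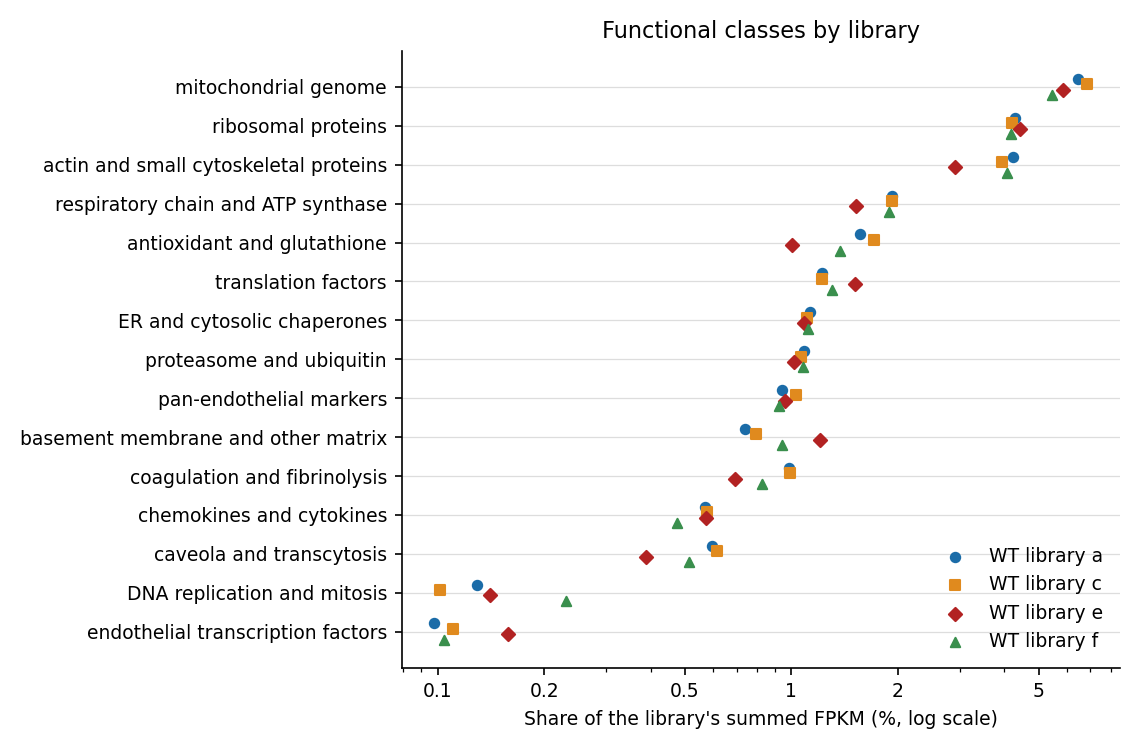
Share of each library's summed FPKM held by 15 gene lists, in % on a log axis, 1 point per WT library. Pan-endothelial markers stayed within 0.926 to 1.03%. Library e was lowest for the cytoskeletal, antioxidant and respiratory chain lists and highest for the matrix list, while library f was highest for replication genes. By UniProt keyword, not drawn here, extracellular matrix genes were lowest in e.

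Genes of division were read at low to middle levels. All 43 genes of DNA replication and mitosis in the table had a mean of at least 1 FPKM, and 31 had at least 10, although 4 of the 43 were listed at 0 in some libraries. *Cdk1*, the kinase that drives mitosis, was at 72.3, 49.97, 80.02 and 138 FPKM, the replication clamp *Pcna* at 32.1, 32.03, 40.4 and 48.2 FPKM and topoisomerase II alpha, *Top2a*, at 18.6, 16.1, 22.5 and 41.1 FPKM. *Mki67*, the Ki-67 antigen, was at 8.01, 6.23, 10.7 and 19.8 FPKM. Library f gave the highest value for 27 of 29 filtered members and library c the lowest for 21, and the list took 0.1295, 0.102, 0.1405 and 0.22996% of the 4 libraries. Inhibitors of division were abundant at the same time, with *Cdkn1a* (p21) at 253, 260.2, 159 and 164 FPKM and *Cdkn2a*, the locus of p16 and p19Arf, at 125, 191, 71.6 and 102 FPKM. Cyclin D1, *Ccnd1*, was at 337, 416, 100.1 and 258 FPKM, lowest in e.

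Spread between the WT libraries was measured by CV in the 6758 genes that averaged 10 FPKM or more and had no 0 in any of the 4. The median CV was 0.142, with the central 90% of genes between 0.0421 and 0.442. 2002 genes (29.6%) were stable, with a CV under 0.1, and 37 (0.547%) were variable, with a CV of 1 or more. At a limit of 0.5, chosen after the values were seen so that groups could be described, 242 genes (3.58%) were variable. The median CV was 0.156 for genes with a mean of 10 to 30 FPKM and 0.102 for those at 300 FPKM or more. Without library e, 6676 genes met the filter, the median CV was 0.09902, 3368 genes were stable and 14 variable.

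Spread differed between groups of proteins. Filtered genes were grouped by the UniProt keywords of the deposited table, used after values were seen. A CV of 0.5 or more was found for none of 178 genes for ribosomal proteins, none of 157 of mRNA splicing, none of 299 of protein transport, none of 48 of the proteasome and 1 of 515 of mitochondria. The list of ribosomal protein genes used above had 1 of 75, and the filter leaves out genes with a 0, such as *Rpl13a*. By keyword the count was 64 of 246 genes for secreted proteins (26.02%), 19 of 50 for extracellular matrix (38.0%), 7 of 23 for cytokines (30.4%) and 7 of 28 for growth factors, against 3.58% of all filtered genes. The median CV was 0.305 for secreted proteins and 0.0932 for ribosomal proteins. Without library e these medians were 0.192 and 0.0662. For extracellular matrix the median CV was 0.383 with e and 0.228 without. Without e, 36 of 229 genes for secreted proteins (15.7%) and 13 of 45 for extracellular matrix (28.9%) had a CV of 0.5 or more, against 2.11% of all.

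**Figure D4:**
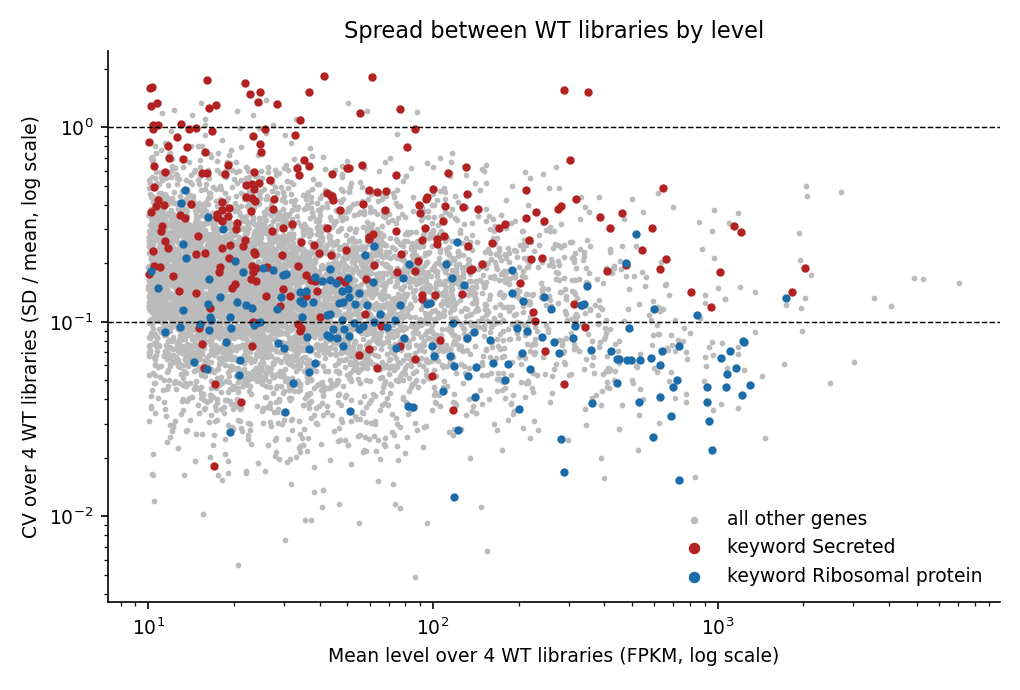
CV over the 4 WT libraries against mean level in FPKM, both on log axes, for the 6758 filtered genes, with genes for secreted proteins in red and for ribosomal proteins in blue. Dashed lines mark CV 0.1 and 1. Secreted proteins (median CV 0.305) lie above ribosomal proteins (median CV 0.0932).

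The most stable genes included genes of the dynein motor complex, translation and mitochondria. *Dctn4*, a subunit of dynactin, was at 20.7, 20.6, 20.7 and 20.5 FPKM (CV 0.00562), and *Pafah1b1*, the dynein regulator LIS1, at 35.7, 35.2, 35.1 and 35.7 FPKM (CV 0.009598). The scaffold of translation initiation, *Eif4g1*, was at 154, 155, 156 and 156 FPKM (CV 0.00662), and *Btf3*, a subunit of the nascent polypeptide complex, at 96.4, 94.9, 94.3 and 95.1 FPKM (CV 0.00926). The adenine nucleotide carrier *Slc25a5* was at 147, 148, 147 and 150.3 FPKM. The other 7 of the 12 lowest were *Ddx56*, *Usmg5*, *Lyn*, *Tpd52l2*, *Hmg20b*, *Eci2* and *Rpl30*, with CV from 0.00757 to 0.0125. These CV are below the value that read counting alone would give on average at the estimated depth and the longest annotated transcript (0.0378 for *Dctn4*), as is so for 337 of the 2002 stable genes, and their order is thus not a measure of biological steadiness. Among the genes of endothelium, *Icam2*, *Eng* and *Pecam1* were the pan-endothelial markers under 0.1.

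The 20 most variable named genes included many of secreted proteins. *Eln*, which encodes elastin (chr5:134702593-134747323, minus strand), was read at 7.81, 1.34, 0.7604 and 156 FPKM (CV 1.84), and *Fbln5*, fibulin 5, which assembles elastic fibres (chr12:101746565-101819055, minus strand), at 6.56, 7.48, 12.7 and 120.4 FPKM (CV 1.52). Both elastic fibre genes were thus high in library f alone. The interval that the table gives for them covers 0.19002% and 0.444% of the annotated gene. Small intervals were not particular to these genes, as 42.0% of filtered genes with an annotated gene had one under 50% of it. Among variable genes named below, these include *Olr1* (0.598%), *Ltbp2* (0.833%) and *Mgp* (4.01%), while *Dcn* and *Spp1* were at 100%. Whether such a level reflects the whole transcript was not tested. The retinaldehyde dehydrogenase *Aldh1a1* was also highest in f, at 10.6, 10.7, 2.86 and 79.5 FPKM.

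Most of the others were high in library e. Some marker lists of other cells were also highest there. The fibroblast list held 0.0516, 0.0478, 0.116 and 0.0553% of the libraries and the myeloid list 0.01401, 0.0304, 0.0486 and 0.009599%. Library e was highest for 2 of 5 filtered fibroblast and 1 of 3 filtered myeloid members. *S100a8* was at 2.05, 29.5, 129.8 and 0 FPKM. The lung epithelial and mesothelial lists were lowest in e, and the smooth muscle and pericyte list was highest in f. The part of other cells in the levels that follow was not tested. *Spp1*, osteopontin (chr5:104435118-104441050, plus strand), was at 17.96, 143, 958 and 36.5 FPKM and *Mgp*, the matrix Gla protein that inhibits calcification (chr6:136872435-136875823, minus strand), at 7.58, 135, 1145 and 111 FPKM. Both were lowest in a. *Dcn* (chr10:97479609-97518143, plus strand) had a CV of 1.81. *Igfbp5*, which binds insulin-like growth factors, was at 0.636, 6.51, 77.1 and 3.18 FPKM, and collagen XV, *Col15a1*, at 1.63, 1.68, 34.5 and 2.86 FPKM. *Ltbp2*, a latent TGF-beta binding protein of elastic fibres, was at 1.05, 5.96, 45.5 and 8.72 FPKM. Of inflammatory genes, *Il6* was at 3.99, 4.71, 29.8 and 2.28 FPKM, *Il11* at 6.48, 9.91, 81.5 and 1.31 FPKM, *Cxcl1* at 5.92, 7.18, 47.1 and 5.198 FPKM and lipocalin 2, *Lcn2*, at 4.42, 17.8, 72.4 and 2.28 FPKM. Over the list of chemokines and cytokines, library e was highest for 8 and lowest for 7 of 21 filtered members. By the UniProt keyword for cytokines, 6 of 23 filtered genes were at least 2 times higher in e than in every other library. The oxidised LDL receptor *Olr1* was at 1.32, 3.05, 35.1 and 1.71 FPKM, the C1 inhibitor *Serping1* at 1.296, 6.35, 32.2 and 3.23 FPKM, the basophil protease *Mcpt8* at 0.8002, 4.501, 58.1 and 0.964 FPKM and the imprinted RNA *H19* at 15.3, 10.7, 151 and 23.9 FPKM. *Mmp10*, a matrix protease, was at 1.55, 16.6, 72.4 and 0.581 FPKM, and the peptide hormone gene *Cck* at 9.19, 87.7, 208 and 2.34 FPKM, both with their second highest value in c. Of the 37 variable genes, 30 were highest in e and 7 in f, and 21 were lowest in a.

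**Figure D5:**
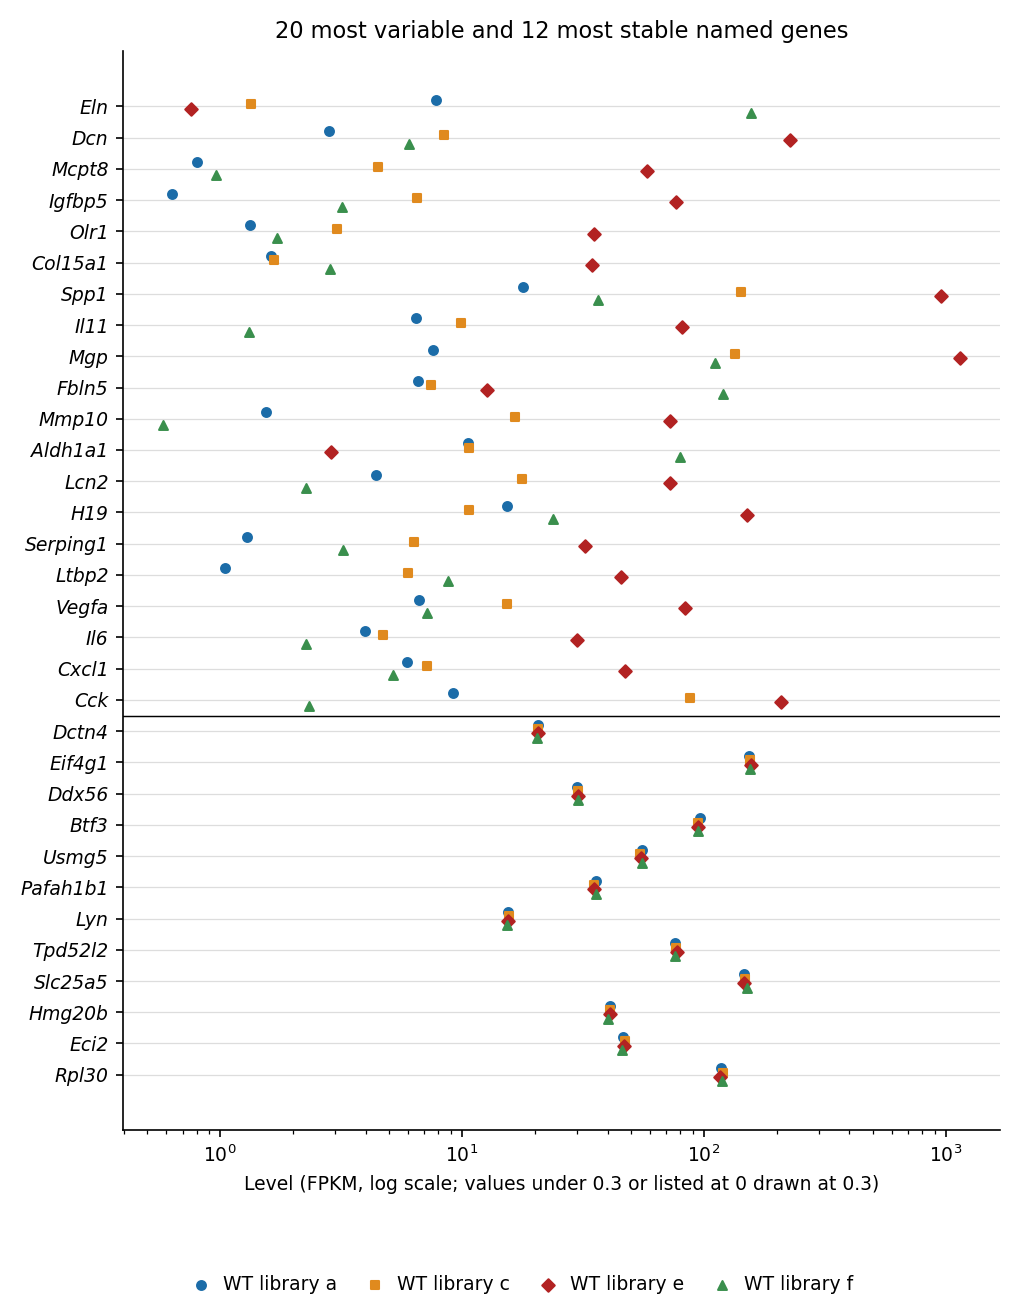
Levels in FPKM on a log axis of the 20 named genes of highest CV and the 12 of lowest CV, 1 point per WT library. *Eln* (0.7604 to 156 FPKM), *Fbln5* and *Aldh1a1* were highest in f and the other 17 variable genes in e, while the points of the stable genes overlap.

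Without library e, the named genes of highest CV were *Eln*, *Fbln5*, *Cck*, *Cthrc1*, *Col3a1*, *Frzb*, *Aldh1a1*, *Cxcr7*, *Ccdc80* and *Emp3*, with CV from 1.05 to 1.59 over a, c and f. All but *Cck* were highest in f among these 3 libraries. *Cxcr7*, a scavenger receptor for CXCL12, was at 24.4, 22.9, 21.98 and 166 FPKM, and the Wnt inhibitor *Frzb* at 3.64, 13.8, 43.7 and 70.1 FPKM. *Cthrc1*, a secreted protein of remodelling vessels, was at 7.12, 4.36, 40.9 and 83.7 FPKM.

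Library e differed most from the others by both measures used. Of the filtered genes, 21 were at least 4 times higher in e than in the highest of the other 3 libraries and 30 at least 4 times lower than in the lowest. The counts were 0 and 5 for a, 0 and 0 for c, and 6 and 4 for f. Across genes, the Pearson correlation of log2(FPKM + 1) between e and the others was 0.8997 to 0.908, against 0.928 to 0.936 among a, c and f, over 16303 genes that are not independent of each other.

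The 10 named genes furthest below the others in e follow. *S100a7a* was at 65.6, 30.2, 0.718 and 30.6 FPKM, *Lce1g* at 26.1, 20.2, 0.357 and 9.95 FPKM and *Crct1* at 115, 103, 7.76 and 155 FPKM, genes of the epidermal differentiation complex, and *Perp*, a desmosome protein and target of p53, was at 44.6, 32.3, 0.837 and 22.999 FPKM. Keratin 19, *Krt19*, was at 58.96, 27.4, 1.75 and 15.8 FPKM. *Stmn2*, a microtubule regulator known from neurons, was at 184, 119, 5.77 and 114 FPKM, the glutathione transferase *Gsta1* at 23.2, 17.5, 1.72 and 42.5 FPKM and *Lrrc3b* at 19.1, 13.6, 0.468 and 9.38 FPKM. The entry *PLAC9* was at 24.6, 14.9, 0.575 and 30.1 FPKM. It has a near-identical copy listed as *Plac9* (15.04, 10.4, 1.71 and 27.7 FPKM), so both levels are uncertain. *Pbp2* was at 25.2, 29.7, 2.85 and 31.9 FPKM. These genes were read in a, c and f and were at most 7.76 FPKM in e. The UniProt keyword for secreted proteins was held by 36.8% of genes at least 2 times higher in e than in every other library and by 15.8% of those at least 2 times lower, against 3.64% of filtered genes. The median log2 ratio of e to the mean of the others was -0.13 for 980 genes whose longest transcript is under 1 kb and 0.10 for 1856 genes of 4 kb and more. It was -0.117 for 1312 genes of 1 to 2 kb and 0.000256 for 2511 genes of 2 to 4 kb. For 35 ribosomal protein genes under 1 kb the median was -0.0031. The part of transcript length or RNA quality in the level of single genes was not tested.

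In library f, the 3 genes furthest above the others were *Eln*, *Fbln5* and *Aldh1a1*, and the 3 furthest below were *Nog* (noggin, a BMP antagonist, 14.6, 24.02, 12.8 and 1.76 FPKM), *Npy* (neuropeptide Y, 8.96, 16.1, 15.2 and 1.73 FPKM) and *Il11*. In library a, those furthest below were *Mgp*, *Grem1* (gremlin, another BMP antagonist, 3.35, 27.9, 152 and 39.04 FPKM) and *Ltbp2*, and no gene was 4 times above the rest. Library c had none in either direction.

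Promoter sequence was searched for an ETS site, bound by factors of the family of *Erg*, and for a TATA box. Windows of 300 bases, 250 before to 50 after the annotated start, came from RefSeq (GRCm38.p6), and 4588 of 5629 filtered named genes had one. The ETS site CCGGAAGT, on either strand, was in 14.2% of 1615 windows of stable genes, 9.54% of 5808 windows of all filtered named genes and 3.89% of all 32851 windows. TATAAA, from 50 to 15 bases before the start on the coding strand, was in 0.619%, 1.22% and 2.32% of the same windows. Windows rich in CpG, with a CpG ratio of at least 0.6, made up 83.9%, 76.0% and 35.8% of them, the same order as for the ETS site. That site holds a CpG itself, and the part of base composition in these shares was not tested. The motifs do not overlap each other. Of 206 named genes with a CV of 0.5 or more only 149 (72.3%) had a window, under the 80% required, so the check is void for them and no share is given. As examples of each motif, 4 windows chosen because they hold it follow, 2 with an ETS site and 2 with TATAAA, 5′ to 3′ on the coding strand, with the motif in capitals (*Sele* and *Anapc16* were chosen after their values were seen). ACTTCCGG is the ETS site read on the opposite strand. A match is a string of letters and not a shown binding site, and no comparison of stable with variable genes rests on these 4.
*Btf3* (chr13:98316918-98317217, minus strand): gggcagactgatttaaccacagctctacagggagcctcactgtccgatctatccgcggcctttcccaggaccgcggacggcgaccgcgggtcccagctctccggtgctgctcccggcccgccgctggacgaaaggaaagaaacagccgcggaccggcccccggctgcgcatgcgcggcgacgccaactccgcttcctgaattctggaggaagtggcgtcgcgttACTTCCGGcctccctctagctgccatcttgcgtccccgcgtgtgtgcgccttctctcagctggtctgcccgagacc
*Anapc16* (chr10:60003086-60003385, minus strand): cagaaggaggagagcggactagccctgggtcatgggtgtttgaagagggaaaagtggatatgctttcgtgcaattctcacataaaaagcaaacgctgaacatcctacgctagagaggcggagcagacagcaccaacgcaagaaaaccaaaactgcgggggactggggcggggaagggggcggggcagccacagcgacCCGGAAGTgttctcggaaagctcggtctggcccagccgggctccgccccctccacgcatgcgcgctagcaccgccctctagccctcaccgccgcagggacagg
*Mmp10* (chr9:7502092-7502391, plus strand): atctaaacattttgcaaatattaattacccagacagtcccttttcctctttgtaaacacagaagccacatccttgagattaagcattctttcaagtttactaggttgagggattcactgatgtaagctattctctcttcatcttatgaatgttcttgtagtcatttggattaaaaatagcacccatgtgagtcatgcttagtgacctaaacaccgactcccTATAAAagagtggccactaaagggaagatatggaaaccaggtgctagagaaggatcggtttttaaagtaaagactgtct
*Sele* (chr1:164047984-164048283, plus strand): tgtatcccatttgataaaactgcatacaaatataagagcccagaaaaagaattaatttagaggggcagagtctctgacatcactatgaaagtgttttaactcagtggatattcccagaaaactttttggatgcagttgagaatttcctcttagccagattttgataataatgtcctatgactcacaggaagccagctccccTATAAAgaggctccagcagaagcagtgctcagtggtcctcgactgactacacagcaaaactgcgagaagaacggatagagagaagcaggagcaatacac
*Btf3* (96.4, 94.9, 94.3 and 95.1 FPKM) and *Anapc16*, a subunit of the anaphase-promoting complex (37.97, 38.8, 37.9 and 37.7 FPKM), are among the stable genes, and *Mmp10* ranged from 0.581 to 72.4 FPKM and *Sele* from 8.28 to 60.1 FPKM, both highest in e.

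Some genes that every cell needs could not be read in every library. The 8 highest named genes listed at 0 in some libraries and at 10 FPKM or more in the others were *Ctsd* (0, 1506, 578 and 1130.1 FPKM), *Rpl13a* (1038, 1003, 0 and 908 FPKM), *Calu*, *Ecscr*, *Serf2*, *Atp5o*, *Tpi1* (149.6, 188, 0 and 158 FPKM) and *Rpn2*. Cathepsin D is a lysosomal protease and triosephosphate isomerase an enzyme of glycolysis, so that a level of 0 in 1 library beside a high level in the others is to be read as listed at 0 and not as absence.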

How the data were processed

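RNA of cultured MLEC was read as single reads from poly(A) libraries (TruSeq). The authors trimmed reads with Cutadapt, mapped them to GRCm38 with TopHat2 2.0.6 and deposited FPKM per gene from Cufflinks and Cuffdiff. Strand use is not stated, so overlapping genes cannot be told apart. The authors' log2 fold changes, p-values, q-values, splicing scores and group means were not used, nor were the 3 AM EC-KO library columns.

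From the FPKM, means, SD, CV, ranks and shares of summed FPKM were computed in Python 3.11.15 with numpy 2.4.6 and pandas 2.3.3, and plotted with matplotlib 3.10.9. No test was run. CV used genes that averaged 10 FPKM or more and had no 0 in any library, and its code was tested on simulated data. Depth was estimated as the number of reads at which most low values were within 0.1 of a whole number (68.7 to 74.5% of 395 to 460 values per library, 20% by chance). Whole reads were not recovered. Coordinates and gene types are of GENCODE M21 (GRCm38), which held 94.7% of identifiers.

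Named genes were the 6 markers, the 25 of highest mean with no 0 in any library, and up to 5 or so per list with defining markers near 0. Further ones were the 12 lowest and 20 highest CV, the extremes of each library, and 8 genes listed at 0 in part. Predicted genes, pseudogenes and short RNA genes were counted and not named, other than 1 pseudogene given beside its parent. Some genes that this rule takes in are not reported here, and some further genes were named after their values were seen. The members and the 41 gene lists were chosen with earlier results of these data known.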

Additional observations from a re-analysis of the deposited data

Results flagged for a closer look

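Of 256 values examined over the 4 WT libraries (named genes, list shares and library counts), 43 had 1 library further from the rest than Dixon's 95% limit, by the gap to the nearest library as a part of the whole range. The number after each gene is that part, from 0 to 1. Chance alone gives about 1 in 20, and most genes examined were named for their spread or level, so the count is no test.

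Library e was high for *Aplnr* 0.992, *Col15a1* 0.963, *Col1a1* 0.916, *Col1a2* 0.999, *Cxcl1* 0.953, *Dcn* 0.975, *Flt1* 0.932, *Gpihbp1* 0.836, *H19* 0.906, *Igfbp5* 0.923, *Il11* 0.893, *Il6* 0.912, *Lmo2* 0.851, *Lum* 1.0, *Mcpt8* 0.935, *Mgp* 0.888, *Olr1* 0.949, *Ptgs1* 0.839, *Selp* 0.838, *Serping1* 0.836, *Sftpc* 1.0, *Spp1* 0.867, *Tek* 0.964, *Vegfa* 0.887 and *Vwf* 0.89. The fibroblast list was high there too, at 0.889. They hold matrix genes, inflammatory genes and endothelial genes. *Aplnr*, *Col1a2*, *Lum* and *Sftpc* were at or near 0 in the other libraries, and *Lum* reached no more than 0.483 FPKM in e. An exact 0, as for *Sftpc* in the other libraries and *Vwf* in a and c, can be a failed estimate. Library e was low for *Emcn* 0.87, *Icam2* 0.839, *Procr* 0.877, *Rpl13a* 0.875 and *Serf2* 0.883, of which *Rpl13a* and *Serf2* were listed at 0 there, and for the share of the respiratory chain, at 0.879. The 4 values of *Icam2* lay within 111 to 122 FPKM.

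Library f was high for *Aldh1a1* 0.897, *Cxcr7* 0.983, *Eln* 0.955, *Fbln5* 0.946 and *Msln* 0.847 and for the share held by named genes, at 0.869. It was low for *Ecscr* 0.868 and *Edn1* 0.86 and for the share of chemokines and cytokines, at 0.944, and *Ecscr* was listed at 0 there. Library a was high for *Ctnnb1* 1.0, listed at 0 elsewhere, and low for *Ddx56* 0.884, whose 4 values lie within 29.8 to 30.3 FPKM. Library c was not singled out for any value examined.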

How the results depend on the processing

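121 of 154 recomputed values stayed within 1.5 times (counts and median CV) or 1 SD over libraries (shares and correlations) of the value reported. Leaving out each WT library in turn gave 2019 to 3368 stable genes (2002 with all 4), 14 to 50 variable genes (37 with all 4) and 23 to 101 genes that stood apart in 1 library (66 with all 4), with 3368, 14 and 23 without library e and 101 without c. Without e, 36 secreted-protein genes had a CV of 0.5 or more (64 with it), and the median CV fell from 0.305 to 0.192 for secreted proteins and from 0.383 to 0.228 for extracellular matrix. Rescaled to TPM, 59 genes were variable, 1519 reached 100 and 112 reached 1000 in every library (775 and 35 in FPKM), a scale that raises every value. The median-of-ratios factors (0.984 to 1.03) moved no value past these limits. The count of variable genes was 133 with a filter at a mean of 1 FPKM, 308 with none, 139 with zeros kept, 79 by the SD of log2(FPKM + 1) and 93 with a pseudocount of 0.1. Genes that stood apart numbered 213 with a filter at 1 FPKM and 287 at 2-fold. Without predicted, short RNA and mitochondrial genes the first 100 genes held 21.8% (24.4% with them) and pan-endothelial markers 1.08% (0.964% with them). The mean correlation of library e with the others was 0.905 (0.931 among a, c and f), 0.834 with a pseudocount of 0.1 (0.868) and 0.878 by Spearman (0.903). Alternatives chosen after seeing the data gave 242 variable genes at a CV of 0.5, and 1182 stable, 17 variable and 34 genes standing apart among genes whose deposited interval covers at least 50% of the annotated gene, a smaller set. Over genes above 0 in both libraries the correlation of e was 0.964 (0.984). The cause of these changes was not tested. No paired analysis was possible because a single group was described and no result comes from a test. At 7.6 to 8.1 M reads, low and short genes are measured least precisely.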
